A study of Mus musculus with 24 samples.

Results

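The genes described here are the core of the transforming growth factor beta (TGF-beta) pathway: the ligands Tgfb1, Tgfb2 and Tgfb3, the latent TGF-beta binding protein Ltbp1, the receptors Tgfbr1 and Tgfbr2, and the signal transducers Smad2, Smad3, Smad4 and Smad7. They were taken by name from the deposited table, which held all 10 of them among its 15232 genes, and all 10 were among the 12572 genes with a mean of at least 1 FPKM that were tested.

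The measurements come from bulk polyadenylated RNA of the mouse anterior cingulate cortex, a frontal cortical area, with 1 library for each of 24 mice. There were 3 arms of 8 mice with 4 females and 4 males each. They were untrained wild type, untrained Thbs1/2 knockout and trained Thbs1/2 knockout, as labelled. Trained mice worked in operant (Skinner) boxes and were deprived of food when training began, so food deprivation and training cannot be told apart. Untrained mice had food freely. The knockout label covers both thrombospondin genes. Strain, age and the design of the alleles are not given in the sources used here. The labels number the samples as separate animals, and a trained wild-type arm was not analysed here.

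The levels of the targeted genes were looked at first, and they were not lower with the KO label. Mean Thbs1 was 0.512 FPKM with the WT label, against 3.68 FPKM without and 4.63 FPKM with training under the KO label (SDs 0.147, 0.840 and 0.690 FPKM, n = 8 per arm). Thbs2 was likewise higher in both arms labelled KO. As the design of the alleles is not given, reversed labels and alleles that leave a transcript cannot be told apart by these levels. All genotype directions below therefore rest on the labels, and the libraries are called labelled KO or labelled WT. Library depth, recovered as whole reads from the FPKM values, ran from 12343773 to 27233266 reads. Male untrained labelled KO library 3 stood apart, with a summed level of 10 septal neuron markers of 140 FPKM against 11.3 to 17.7 FPKM in the other 23 libraries. All 8 trained mice had animal numbers over 1000, against 3 untrained males and no untrained female, so that among females training and animal number cannot be told apart.

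TGF-beta ligands are secreted as latent complexes, in which a propeptide cages the ligand and a latent TGF-beta binding protein tethers it to the extracellular matrix. Released ligand binds the type II receptor Tgfbr2, which phosphorylates the type I receptor Tgfbr1, and Tgfbr1 in turn phosphorylates Smad2 and Smad3. These join Smad4 and act on genes in the nucleus, among them Smad7, whose protein inhibits the receptors. Thrombospondin 1 is known as an activator of latent TGF-beta, and microglia of the adult brain need TGF-beta signalling to keep their identity. Transcript levels are what was measured here, and they do not show how much ligand was released or how active the pathway was.

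Every member was detected in every library. Over the 24 libraries the means per gene length were ordered Smad3 (18.9 FPKM), Smad4 (14.2 FPKM), Smad2 (5.59 FPKM), Tgfbr1 (5.56 FPKM), Smad7 (4.99 FPKM), Tgfb3 (4.61 FPKM), Tgfbr2 (3.71 FPKM), Tgfb2 (2.22 FPKM), Tgfb1 (1.61 FPKM) and Ltbp1 (1.55 FPKM). Smad3 exceeded Smad4 in 23 of 24 libraries, and Smad4 exceeded Smad2 in all 24. Smad2 and Tgfbr1 could not be ordered, as each was the higher one in 12 libraries, and the same held for Tgfb1 and Ltbp1. Tgfb3 was the most abundant ligand transcript, Tgfb2 came next and Tgfb1 was the lowest, exceeded by Tgfb2 in 19 libraries. The low members rest on few reads: Tgfb1 had 36 to 91 reads per library and Smad3 had 1071 to 2252. Bulk RNA cannot tell fewer cells of a type from less RNA per cell.

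The members are spread over the genome and over base composition. In GRCm38 coordinates from RefSeq, Tgfb1 lies at chr7:25687002-25705077, Tgfb2 at chr1:186622787-186709697, Tgfb3 at chr12:86056743-86079041 and Tgfbr1 at chr4:47353222-47414926. Tgfbr2 (chr9:116087695-116175363) and Smad3 (chr9:63646766-63757994) share a chromosome, as do Smad2, Smad4 and Smad7. Ltbp1 (chr17:75005480-75392512) is on the chromosome of the targeted gene Thbs2, 60.3 Mb from it. The longest coding transcript in GENCODE M21 had a GC content of 62.5% for Tgfb1, above 98.5% of tested genes, and of 41.0% for Tgfbr1, near the low end. The 3 ligands also differ among themselves in this respect, with 46.9% for Tgfb2 and 53.0% for Tgfb3. Base composition turned out to go with the sex difference described further on, so the last 90 coding bases of the ligands and of Tgfbr1 are printed here with G and C in capitals. They are given 5′ to 3′ on the coding strand from GENCODE M21, without the stop codon. In the ligands they encode the end of the mature growth factor.
Tgfb1 (chr7:25704850-25704939, plus strand, exon 7): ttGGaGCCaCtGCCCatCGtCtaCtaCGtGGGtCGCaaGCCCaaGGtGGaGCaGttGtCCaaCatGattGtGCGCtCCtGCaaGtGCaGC
Tgfb2 (chr1:186625451-186625540, minus strand, exon 7): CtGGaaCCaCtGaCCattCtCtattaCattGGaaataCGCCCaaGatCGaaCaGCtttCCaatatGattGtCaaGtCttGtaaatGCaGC
Tgfb3 (chr12:86057783-86057872, minus strand, exon 7): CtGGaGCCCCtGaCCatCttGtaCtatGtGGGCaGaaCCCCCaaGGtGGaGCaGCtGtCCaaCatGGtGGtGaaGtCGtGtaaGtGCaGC
Tgfbr1 (chr4:47410685-47410774, plus strand, exon 9): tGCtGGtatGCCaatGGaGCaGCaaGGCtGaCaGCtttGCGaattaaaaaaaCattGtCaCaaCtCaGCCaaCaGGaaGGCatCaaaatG
The windows of Tgfb1 and Tgfb3 are identical at 71 of 90 bases (78.9%) and hold 57.8% and 56.7% G and C. The Tgfb2 window holds 41.1% and shares 64 bases with Tgfb1 (71.1%) and 67 with Tgfb3 (74.4%), while the Tgfbr1 window holds 44.4%. Of the ligand windows that of Tgfb2 is thus the one poor in G and C.

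The first comparison asks whether the pathway's transcripts differ between untrained libraries labelled KO and labelled WT. No member passed the test. The limma fit called 179 of the 12572 tested genes (1.42%) for genotype label at an adjusted p under 0.05, and it called 0 of 10 members. With the KO label 0.605% of genes were called higher and 0.819% lower. One member, Smad7, had an unadjusted p under 0.05, against 12.7% of all tested genes, and limma-voom on the recovered reads also called 0 members. The 95% intervals of the 10 log2 changes lay between -0.27 and 0.34, so larger changes of the group means on the log2(FPKM + 1) scale were outside them. The median log2 change of the members was 0.00, as it was for all tested genes (-0.00).

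Among the ligands, Tgfb1 ran from 1.13 FPKM through a median of 1.52 FPKM to 1.99 FPKM in the libraries labelled WT, and from 1.37 FPKM through 1.53 FPKM to 1.99 FPKM in the untrained libraries labelled KO. Tgfb2 ran from 1.78 FPKM through 2.07 FPKM to 2.52 FPKM and from 1.72 FPKM through 2.15 FPKM to 4.54 FPKM. The arms overlapped for both, and the highest Tgfb2 value, 4.54 FPKM, was that of male untrained labelled KO library 3. With that library the Tgfb2 difference was 0.09 (log2, SE 0.12, adjusted p = 0.806), and without it -0.02. That library also had 772 FPKM of summed striatal neuron markers, against 90.6 to 389 FPKM in the rest of its arm, and 1010 FPKM of summed excitatory neuron markers, against 1900 to 2220 FPKM. The part of its cell makeup in the Tgfb2 value was not tested.

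Tgfb3 ran from 4.04 FPKM through 4.53 FPKM to 5.50 FPKM in the libraries labelled WT and from 3.32 FPKM through 4.16 FPKM to 4.87 FPKM in the untrained libraries labelled KO, a log2 difference of -0.10 (SE 0.070, adjusted p = 0.591). Ltbp1, which anchors the latent ligand to matrix, differed by -0.02 (SE 0.055, adjusted p = 0.904). Of the 572 tested genes on chromosome 17, which Ltbp1 shares with Thbs2, 48 were called for genotype label, and of the 40 within 5 Mb of Ltbp1 1 was. Over all 12572 tested genes 179 were called (1.42%). For the ligands and their anchor the untrained arms overlapped.

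The receptors gave small differences too. Tgfbr1 had log2 change -0.07 (SE 0.051, adjusted p = 0.620) and Tgfbr2 -0.01 (SE 0.089, adjusted p = 0.966). Tgfbr2 spread widely within each arm, from 3.05 FPKM to 4.77 FPKM in the libraries labelled WT and from 2.90 FPKM to 4.49 FPKM in the untrained libraries labelled KO, while counting alone gives a coefficient of variation near 6.03%.

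Of the Smads, Smad7 came nearest to the threshold. It ran from 4.66 FPKM through 5.18 FPKM to 5.90 FPKM in the libraries labelled WT and from 4.01 FPKM through 4.70 FPKM to 5.28 FPKM in the untrained libraries labelled KO. The groups overlapped, with 4 of the 8 libraries labelled KO below all those labelled WT. The log2 change was -0.14 (SE 0.059) with an unadjusted p of 0.0300 and an adjusted p of 0.319 (limma). Smad2 (0.02), Smad3 (0.07) and Smad4 (0.03) had log2 changes with adjusted p-values of 0.886, 0.810 and 0.863.

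**Figure D1:**
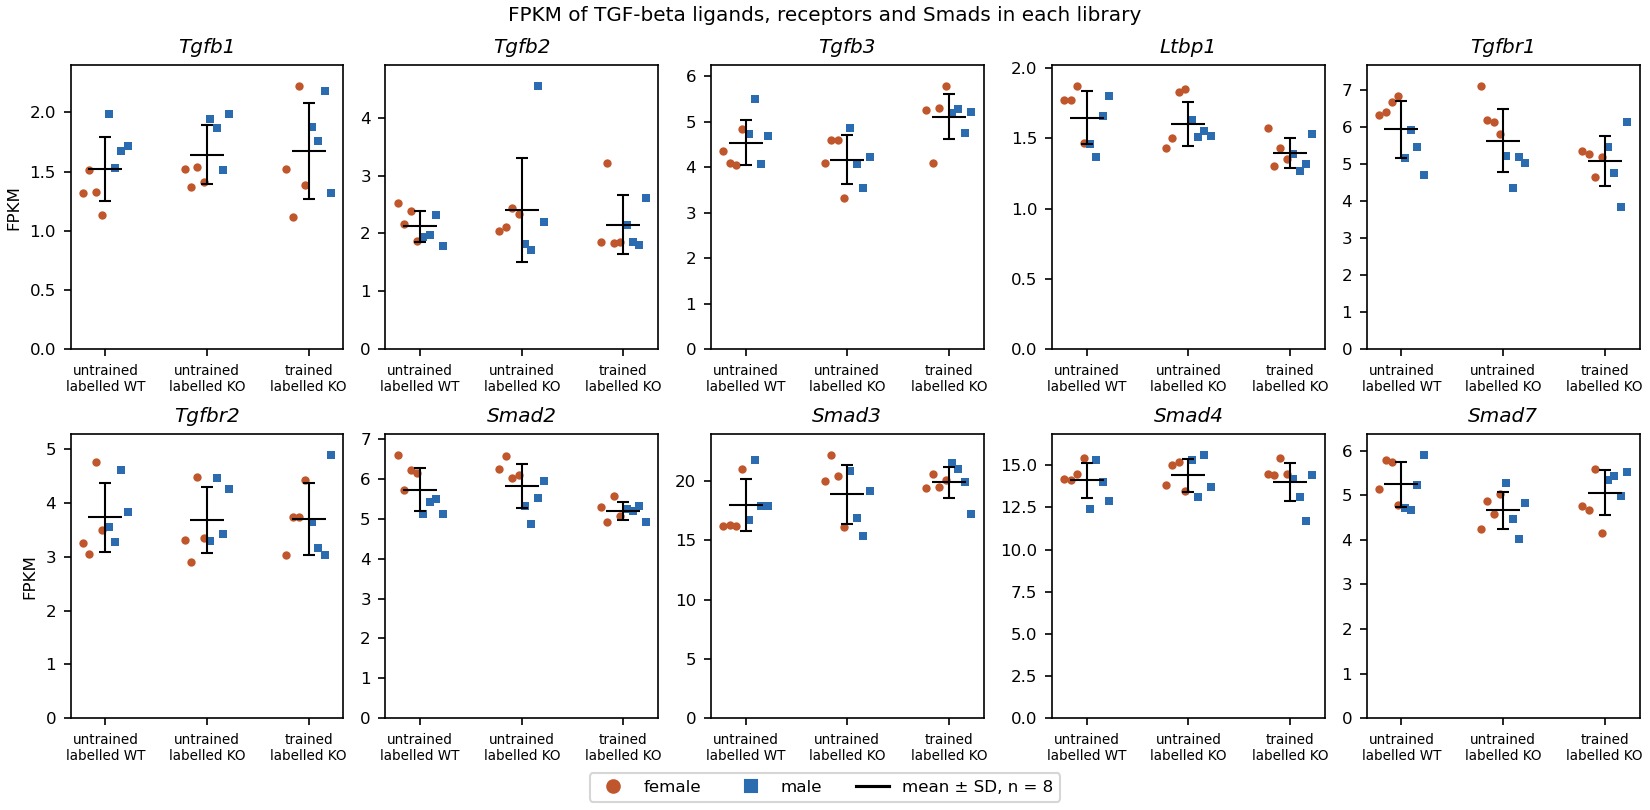
FPKM of each of the 10 genes (vertical axes, from 0) in the 24 libraries by arm (horizontal axes), with females as circles, males as squares, and the mean and SD of the 8 libraries of an arm as black bars. The arms overlap for every gene, and 1 untrained male library labelled KO stands at 4.54 FPKM of Tgfb2.

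Training was compared within the libraries labelled KO, trained against untrained. Tgfb3 gave the largest change of the members and just missed the threshold. The fit called 713 of 12572 genes (5.67%, with 3.5% higher and 2.17% lower) and 0 of 10 members, while 3 members, Tgfb3, Smad2 and Ltbp1, had an unadjusted p under 0.05, against 23.8% of all genes. Limma-voom on the recovered reads called 2 members, Tgfb3 and Smad2. The median absolute log2 change was 0.09 for the members and 0.08 for all tested genes.

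Tgfb3 ran from 4.10 FPKM through 5.23 FPKM to 5.78 FPKM in the trained libraries, against 3.32 FPKM through 4.16 FPKM to 4.87 FPKM in the untrained ones. In 6 of the 8 trained libraries it was above all 8 untrained ones, and the exceptions were female library 2 (4.10 FPKM) and male library 3 (4.76 FPKM). Means were alike in the sexes: 5.11 ± 0.716 FPKM (SD, n = 4) against 4.16 ± 0.609 FPKM (SD, n = 4) in females, and 5.11 ± 0.239 FPKM (SD, n = 4) against 4.18 ± 0.545 FPKM (SD, n = 4) in males. The log2 change was 0.24 (SE 0.071, 95% interval 0.09 to 0.39) with an adjusted p of 0.0519. It passed the threshold when male untrained library 1, female untrained library 2 or female trained library 2 was left out (adjusted p = 0.0363, 0.0498 and 0.0322).

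Animal number differs between the arms, so Tgfb3 is also given among mice with numbers over 1000. The 2 untrained labelled KO males with numbers over 1000 had 4.08 FPKM and 4.87 FPKM, against 4.76 FPKM to 5.29 FPKM in the 4 trained males, all with numbers over 1000. With a term for animal number the Tgfb3 change was 0.15 (adjusted p = 0.70), and among males over 1000 it was 0.16 (adjusted p = 0.570). The 6 untrained labelled KO libraries with numbers under 1000 ran from 3.32 FPKM to 4.61 FPKM, which overlaps the 2 over 1000. The term for animal number left 0 of the 12572 genes called for training (1306 with an unadjusted p under 0.05). Against the untrained libraries labelled WT, whose Tgfb3 reached 5.50 FPKM, 1 of 8 trained libraries was higher than all.

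The other ligands did not separate the arms by training. Tgfb1 in trained libraries ran from 1.12 FPKM through 1.64 FPKM to 2.22 FPKM, a wider range than in either untrained arm, and its log2 change was 0.01 (SE 0.082, adjusted p = 0.968). Its coefficient of variation was 24.1% in the trained arm, against 12.7% from counting alone. Tgfb2 changed by -0.09 (SE 0.13, adjusted p = 0.712), and by 0.02 without male untrained library 3.

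Ltbp1 ran from 1.27 FPKM through 1.37 FPKM to 1.57 FPKM in trained libraries, and 5 of the 8 were below all untrained libraries labelled KO (1.43 FPKM to 1.85 FPKM). The log2 change was -0.12 (SE 0.052, adjusted p = 0.173). With the term for animal number it was -0.12 as well, with an adjusted p of 0.661.

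Receptors and Smads showed no call. Tgfbr1 ran from 3.86 FPKM through 5.25 FPKM to 6.15 FPKM in trained libraries, with a log2 change of -0.12 (SE 0.077, adjusted p = 0.353), and Tgfbr2 changed by 0.01 (SE 0.094, adjusted p = 0.978). Smad2, a substrate of the activated receptor, ran from 4.91 FPKM through 5.22 FPKM to 5.57 FPKM in trained libraries against 4.88 FPKM through 5.98 FPKM to 6.59 FPKM in untrained ones. Its log2 change was -0.14 (SE 0.048, adjusted p = 0.0946). Without male untrained library 2, adjusted p was 0.0474. With the term for animal number the Smad2 difference was -0.00 (adjusted p = 0.997), and among males over 1000 it was 0.02. After correction for GC content and length it was -0.08 (adjusted p = 0.431). Smad3 (0.08), Smad4 (-0.04) and Smad7 (0.10) had log2 changes with adjusted p-values of 0.533, 0.701 and 0.348.

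The trained libraries labelled KO were also set against the untrained libraries labelled WT, a pair of arms that differ in label and in training at once and share libraries with both comparisons above. The fit called 3074 of 12572 genes (24.5%, with 12.9% higher and 11.5% lower) and 0 of 10 members, although 5 members had an unadjusted p under 0.05, against 37.5% of all genes. Limma-voom called 3 members, Tgfbr1, Smad2 and Ltbp1, all lower in trained libraries. In the limma fit those 3 had the smallest adjusted p-values of the members.

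Tgfbr1 differed by -0.19 (log2, SE 0.071, adjusted p = 0.0600), and 4 of the 8 libraries labelled WT, all female, were above every trained one. Ltbp1 differed by -0.14 (SE 0.054, adjusted p = 0.0636), with 5 of 8 libraries labelled WT above all trained ones. Smad2 differed by -0.12 (SE 0.046, adjusted p = 0.0700). In the other direction Tgfb3 and Smad3 each differed by 0.14 (adjusted p = 0.107 and 0.109). Smad3 ran from 16.2 FPKM through 17.3 FPKM to 21.9 FPKM in libraries labelled WT and from 17.2 FPKM through 19.97 FPKM to 21.5 FPKM in trained ones. Each of these except Smad2 passed the threshold without 1 or another library: Tgfbr1 without trained male 1, trained male 4 or WT male 4 (adjusted p = 0.0409, 0.0103 and 0.0335), and Tgfb3 without trained female 2 or WT male 2 (0.0408 and 0.0456). Smad3 and Ltbp1 passed without trained male 4 (0.0368 and 0.0436), WT male 2 (0.0310 and 0.0394) or WT female 4 (0.0366 and 0.0447). Tgfb1 (0.08), Tgfb2 (0.00), Tgfbr2 (-0.01), Smad4 (-0.01) and Smad7 (-0.04) had adjusted p-values from 0.520 to 0.984.

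**Figure D2:**
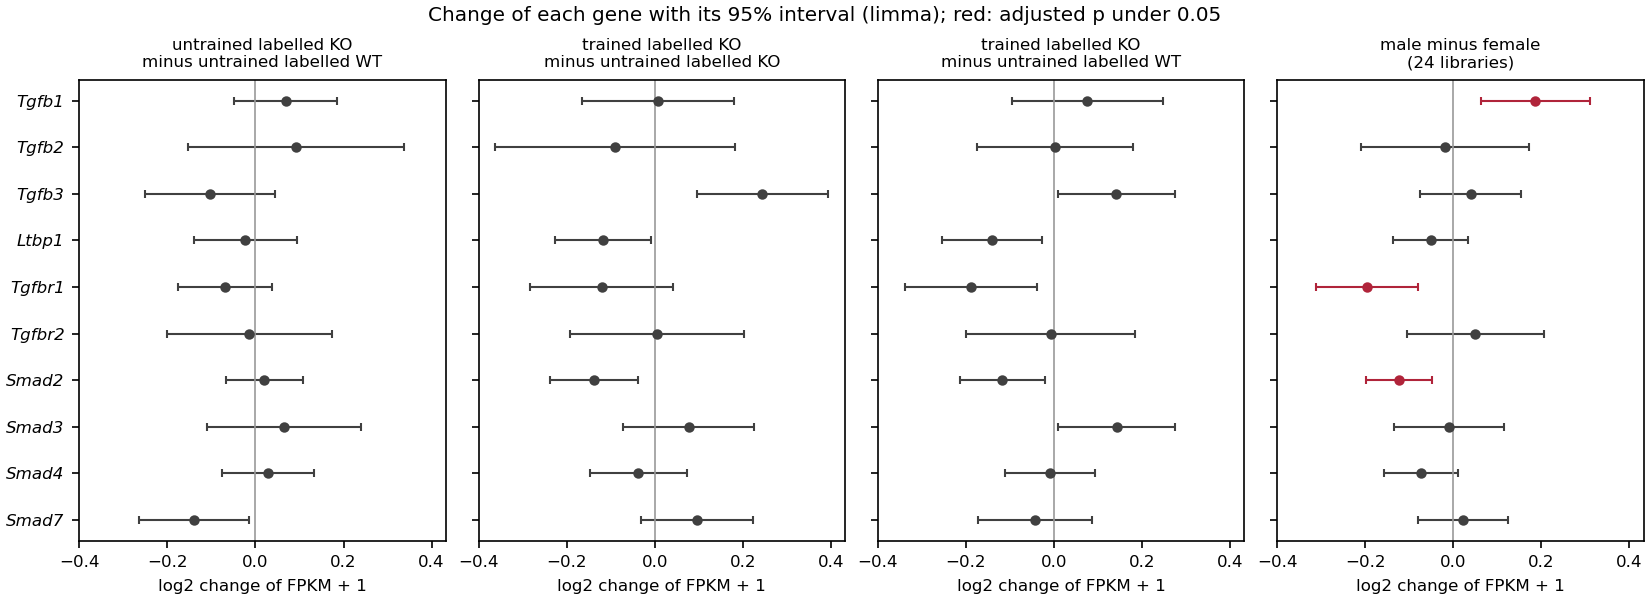
Log2 change of FPKM + 1 with its 95% interval from limma (horizontal axes) for the 10 genes (vertical axis) in the 3 comparisons of arms and between the sexes over 24 libraries. Red marks an adjusted p under 0.05, which only Tgfb1, Tgfbr1 and Smad2 reached, in the sex comparison.

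Females and males were compared across the 24 libraries, with the arm in the model, and here 3 members were called. Tgfb1 was higher in males, and Tgfbr1 and Smad2 were lower. The background is wide: 3595 of 12572 genes (28.6%) were called for sex, 14.8% higher and 13.8% lower in males, and 40.3% had an unadjusted p under 0.05, so that 3 of 10 members is near it. Tgfb1 ran from 1.12 FPKM through 1.40 FPKM to 2.22 FPKM in the 12 females and from 1.32 FPKM through 1.82 FPKM to 2.18 FPKM in the 12 males, a log2 difference of 0.19 (SE 0.060, adjusted p = 0.0233). Tgfbr1 ran from 4.66 FPKM through 6.17 FPKM to 7.11 FPKM in females and from 3.86 FPKM through 5.19 FPKM to 6.15 FPKM in males, a difference of -0.20 (SE 0.056, adjusted p = 0.0116). Smad2 ran from 4.91 FPKM through 6.06 FPKM to 6.60 FPKM in females and from 4.88 FPKM through 5.28 FPKM to 5.94 FPKM in males, a difference of -0.12 (SE 0.036, adjusted p = 0.0132).

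Within arms, Tgfbr1 and Smad2 separated the sexes in both untrained arms and not in the trained one. Tgfb1 did so in the WT arm (1.13 FPKM to 1.51 FPKM in females, 1.53 FPKM to 1.99 FPKM in males) and Smad4 in the trained arm. The share of all tested genes that separate in this way was not counted, so this layout is not shown to be particular to the members. For Tgfbr1, all 4 females were above all 4 males among libraries labelled WT (6.34 FPKM to 6.86 FPKM against 4.72 FPKM to 5.92 FPKM) and among untrained libraries labelled KO (5.83 FPKM to 7.11 FPKM against 4.35 FPKM to 5.23 FPKM). In the trained arm the Tgfbr1 ranges crossed, 4.66 FPKM to 5.35 FPKM in females and 3.86 FPKM to 6.15 FPKM in males. Smad2 followed the same layout, with sex differences of -0.19, -0.18 and -0.01 (log2) in the WT, untrained KO and trained KO arms. The test of the difference itself, training by sex, gave 0.27 (SE 0.14, adjusted p = 0.376) for Tgfbr1 and 0.17 (SE 0.086, adjusted p = 0.360) for Smad2. It called 1 of 12572 genes (0.00795%) and 0 members, with no member at an unadjusted p under 0.05, against 15.5% of genes. Genotype label by sex called 0 genes (0%) and 0 members, with 394 genes (3.13%) at an unadjusted p under 0.05 and no member among them. Limma-voom also called 0 members in both.

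The sex difference followed base composition. Tgfb1, with the highest GC content, had the largest rise in males, and Tgfbr1 (41.0%) and Smad2 (44.9%), with the lowest, had the largest falls. Spearman's correlation between GC content and the sex difference was 0.79 over the 10 members and 0.723 over the 12118 tested genes with a known GC content, as a description only, since all values come from the same libraries. Of the 4039 genes with the lowest GC content, 1510 were called lower in males and 49 higher. Of the 4040 with the highest GC content, 4 were lower and 1334 higher. Once the values were adjusted, library by library, for GC content and transcript length in 20 bins, the fit called 350 genes and 0 members for sex. The corrected sex difference was 0.02 (SE 0.042, adjusted p = 0.869) for Tgfb1, -0.02 (SE 0.039, adjusted p = 0.788) for Tgfbr1 and -0.01 (SE 0.044, adjusted p = 0.922) for Smad2. The Tgfb1 value depends on the transcript: by the longest transcript of any class, which for Tgfb1 is a retained intron of 52.5% GC, it was 0.12 (SE 0.056, adjusted p = 0.255). With a term for animal number no member was called for sex either, while the differences were 0.15 for Tgfb1, -0.17 for Tgfbr1 and -0.09 for Smad2 (adjusted p = 0.0886, 0.0515 and 0.0739). Sex and base composition cannot be told apart for these genes in the untrained arms, where the libraries of each sex lean the same way.

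**Figure D3:**
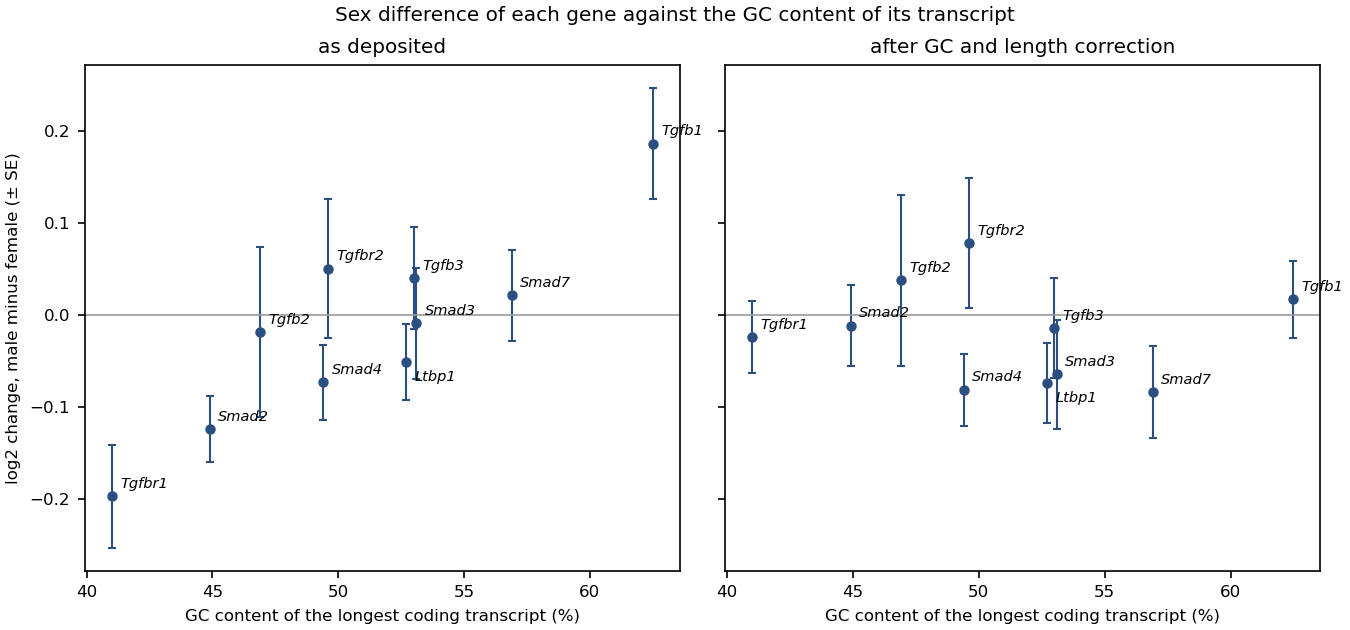
Sex difference (log2, male minus female, with SE) of the 10 genes against the GC content of their longest coding transcript in percent, before (left) and after (right) adjustment for GC content and transcript length. Before correction the differences run from -0.20 for Tgfbr1 at 41.0% to 0.19 for Tgfb1 at 62.5%, and after it both lie within 0.03 of 0. By the longest transcript of any class, not drawn, the corrected Tgfb1 difference was 0.12.

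A measure per library shows the same layout. The GC lean of a library is taken here as the median deviation of its log2(FPKM + 1) values from the 24-library mean over the 4040 GC-richest genes, minus that over the 4039 GC-poorest. It was below 0 in 11 of 12 females and above 0 in 11 of 12 males. Untrained females ran from -0.21 to -0.10 and untrained males from 0.02 to 0.20, with no overlap. In the trained arm females ran from -0.10 to 0.09 and males from -0.04 to 0.25. The 2 exceptions in sign were trained female 3 (0.092), which also had the highest Tgfb1 value of all libraries, 2.22 FPKM, and trained male 4 (-0.039), which had the highest Tgfbr1 value of all males, 6.15 FPKM. Trained male 3 had the highest lean (0.254) and the lowest Tgfbr1 value, 3.86 FPKM. Smad2 was laid out otherwise in the 2 exceptions. Trained female 3 had the highest value of the trained arm, 5.57 FPKM, and trained male 4 the lowest of the trained males, 4.93 FPKM. These libraries were picked after seeing the values, and whether lean or sex goes with the levels was not tested. Over 24 libraries Spearman's correlation between lean and level was 0.79 for Tgfb1, -0.89 for Tgfbr1, -0.57 for Smad2, -0.54 for Tgfb2 and 0.18 for Tgfb3, given as descriptions because lean and level come from the same libraries. For the other members it was -0.41 (Smad4), -0.22 (Ltbp1), -0.10 (Smad3), 0.07 (Tgfbr2) and 0.06 (Smad7, a transcript of 56.9% GC). With the sexes pooled, the arms labelled WT, untrained KO and trained KO had similar medians of lean, -0.05, -0.01 and 0.01. Within a sex they did not: the medians were -0.16, -0.16 and -0.02 in females and 0.11, 0.16 and 0.05 in males. Libraries with animal numbers over 1000 had a median lean of 0.06 and those under 1000 one of -0.12, both with the sexes pooled.

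**Figure D4:**
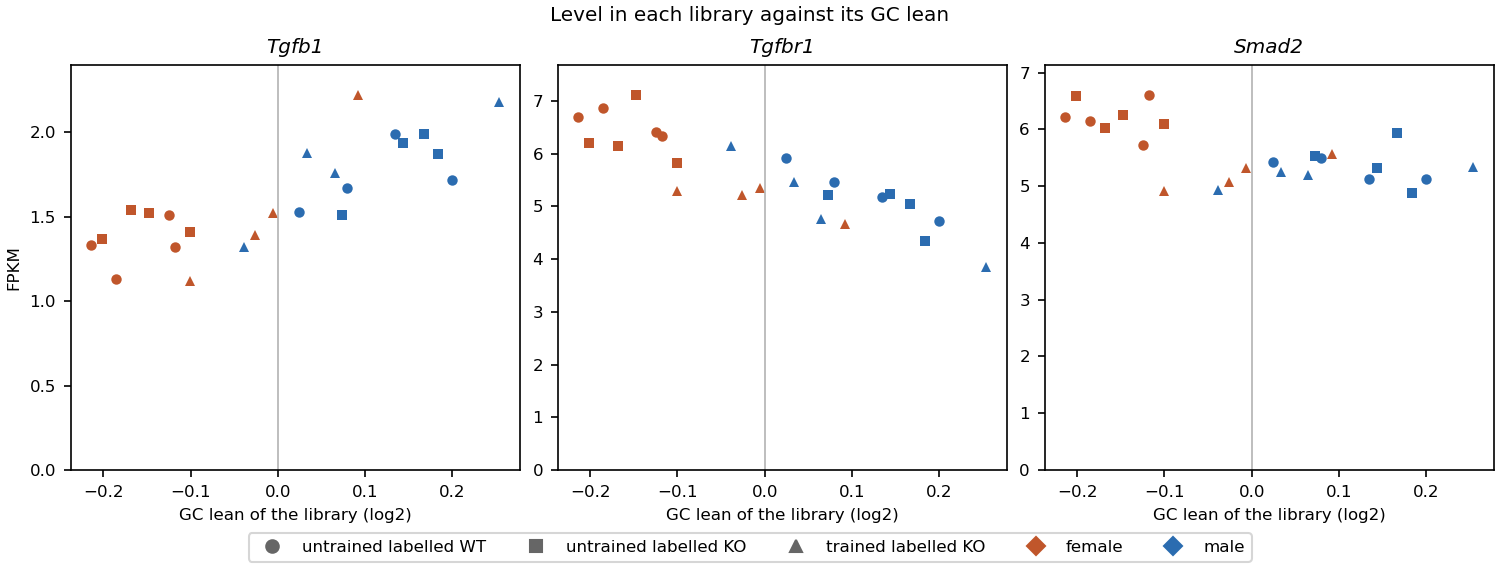
FPKM of Tgfb1, Tgfbr1 and Smad2 (vertical axes, from 0) in each of the 24 libraries against the library's GC lean in log2 units (horizontal axes), with colour for sex and shape for arm. Tgfb1 is higher and Tgfbr1 lower in libraries with a higher lean, with Spearman's correlations of 0.79 and -0.89, and trained males and females mix along the axis.

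Among the members, correlations of the levels within arm and sex were mostly weak. Over the 45 pairs and the 23 libraries without male untrained labelled KO library 3, Pearson's r of log2(FPKM + 1) after removing the mean of each arm and sex ran from -0.60 to 0.66 with a median of 0.08. The highest was between Tgfbr1 and Smad4 (0.66), followed by Smad7 and Ltbp1 (0.64) and by Tgfb3 and Smad3 (0.60). The lowest was between Smad3 and Ltbp1 (-0.60). Tgfb1 and Tgfbr1 gave -0.56, and 0.10 after GC correction. These are descriptions over libraries that share their composition.

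The genes whose levels were most like those of each member, by the same measure over 23 libraries, differed from member to member. For Tgfbr2 they were Reck, a membrane-anchored inhibitor of matrix metalloproteinases (r = 0.91), Itih5 (0.84) and Vwf, the endothelial von Willebrand factor (0.84). For Tgfb3 they were Tacc1 (0.91), Cobl (0.86) and Cdyl2 (0.86), and for Tgfb2 the mineralocorticoid receptor Nr3c2 (0.85), Cyfip1 (0.85) and Mmd2 (0.84). For Smad4 they were Pak2 (0.90), the small-RNA effector Ago2 (0.89) and Smurf2, a ubiquitin ligase of the same pathway (0.88). Those for Smad3 were Ankrd6 (0.93), Ak4 (0.90) and Fam65b (0.85), but with the 24th library r for Ankrd6 was 0.40 and for Fam65b 0.02. With that library r was 0.83, 0.68 and 0.65 for the genes of Tgfbr2 and 0.89, 0.64 and 0.88 for those of Tgfb3. It was 0.88, 0.92 and 0.91 for those of Tgfb2 and 0.86, 0.90 and 0.74 for those of Smad4.

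The remaining members had Ap2a1 (0.88), Tkt (0.87) and Cep170b (0.87) nearest to Tgfb1, and Ash1l (0.89), Mib1 (0.87) and Btbd7 (0.87) nearest to Tgfbr1. After GC correction r was 0.54, 0.41 and 0.41 for the 3 genes of Tgfb1 and 0.78, 0.72 and 0.73 for those of Tgfbr1. Nearest to Smad2 were Vcp (0.80), Fxyd6 (0.80) and Ccdc166 (0.78), to Smad7 Carm1 (0.74), Arap1 (0.72) and Wasf3 (0.70), and to Ltbp1 Kmt2b (0.76), Dnmbp (0.72) and Mcm9 (0.72). After GC correction r was 0.78, 0.53 and 0.39 for the genes of Smad2, 0.60, 0.70 and 0.77 for those of Smad7, 0.65, 0.70 and 0.75 for those of Ltbp1, and 0.52 for Smad4 and Pak2. With the 24th library and no correction, r was 0.89, 0.70 and 0.85 for Tgfb1 and 0.87, 0.82 and 0.86 for Tgfbr1. It was 0.80, 0.79 and 0.77 for Smad2, 0.76, 0.63 and 0.50 for Smad7, and 0.73, 0.64 and 0.71 for Ltbp1. These genes were picked before the correction, and genes were not ranked again after it.

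The other genes of the pathway were taken from 6 lists by role. For genotype label 1 of their 101 tested genes was called (0.99%, against 1.42% of all tested genes), and 10 (9.9%) had an unadjusted p under 0.05, against 12.7% of all. The called gene was 1 of the 24 of the activin and bone morphogenetic protein branch, Acvr1c, a type I receptor for activins and related ligands, which was lower with the KO label, at 3.08 ± 0.632 FPKM against 4.09 ± 0.780 FPKM (SD, n = 8 in each arm), a change of -0.32 (log2, SE 0.077, adjusted p = 0.0458). In 12 of the 16 fits that left out 1 library it missed the threshold, with changes from -0.37 to -0.29. None of the 17 tested genes of the latent complex and its activation, 10 coreceptors and receptor regulators, 17 Smad partners and regulators, 21 TGF-beta target genes and 12 microglial genes that depend on TGF-beta was called, with 0, 2, 1, 2 and 2 of them at an unadjusted p under 0.05.

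For training, 7 of the 101 genes on the lists were called (6.93%, against 5.67% of all tested genes), and 23.8% had an unadjusted p under 0.05, as did 23.8% of all. Of the 17 genes of the latent complex 2 were called. Adamts1, a secreted protease, rose to 3.11 ± 0.701 FPKM in trained libraries, against 2.15 ± 0.366 FPKM (SD, n = 8 in each arm), by 0.37 (SE 0.092, adjusted p = 0.0261). Fibrillin 1 (Fbn1), the microfibril protein to which latent complexes attach, fell to 0.800 ± 0.158 FPKM, against 1.29 ± 0.311 FPKM (SD, n = 8 in each arm), a change of -0.34 (SE 0.086, adjusted p = 0.0310). Of the 21 target genes 1 was called, the cell cycle inhibitor Cdkn1a, at 0.37 (SE 0.10, adjusted p = 0.0423).

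Of the genes named from the lists the largest change by training was that of Inhba, which encodes the subunit of activin A. It rose to 3.32 ± 0.605 FPKM, against 1.85 ± 0.662 FPKM (SD, n = 8 in each arm), by 0.62 (SE 0.11, adjusted p = 0.00627), and stayed called whichever library was left out. Its receptor Acvr1b fell by 0.16 (SE 0.043, adjusted p = 0.0421) and Smad9, a transducer of the bone morphogenetic proteins, by 0.26 (SE 0.071, adjusted p = 0.0397), so that 3 of the 24 tested genes of that list were called. Among the microglial genes 1 of 12, the receptor Gpr34, fell by 0.27 (SE 0.070, adjusted p = 0.0355). None of the 10 coreceptors and none of the 17 Smad partners was called, with 2 and 1 at an unadjusted p under 0.05. Over all tested genes 5.67% were called for training. Acvr1b, Cdkn1a, Gpr34, Smad9 and Fbn1 missed the threshold in 13, 10, 9, 11 and 6 of the 16 fits without 1 library, and Adamts1 in 1. Without male untrained library 3 each list kept its called genes for training. With the replicate block Inhba changed by 0.55 with an adjusted p of 0.0752. With a term for animal number 0 of the 12572 genes were called for training, and likewise among males over 1000. Inhba and the other list genes called for training were thus not called in either fit.

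**Figure D5:**
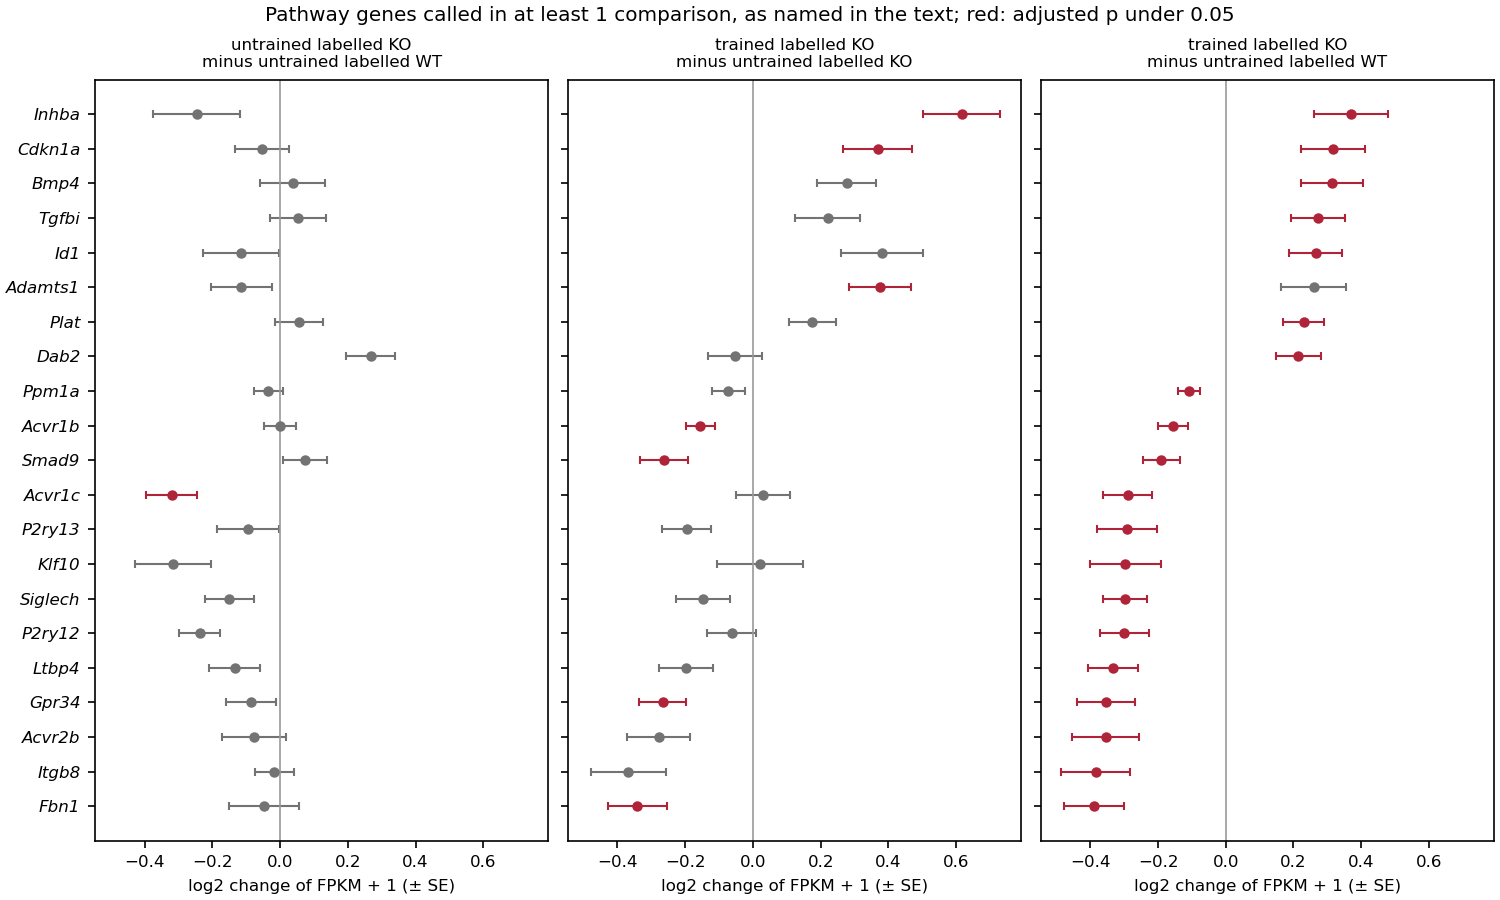
Log2 change of FPKM + 1 with its SE (horizontal axes) of the other pathway genes named in the text (vertical axis) in the 3 comparisons of arms, with an adjusted p under 0.05 in red. Acvr1c is the only red point for genotype label, and Inhba has the largest change by training, 0.62.

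Between trained libraries labelled KO and untrained libraries labelled WT 30 of the 101 genes were called (29.7%), and the largest share of called genes was among the microglial genes: 7 of 12, 6 of them lower, against 24.5% of all tested genes. Siglech, a microglial lectin (-0.30, SE 0.064, adjusted p = 0.00323), the purinergic receptors P2ry12 (-0.30, SE 0.072, adjusted p = 0.00669) and P2ry13 (-0.29, SE 0.088, adjusted p = 0.0226), and Gpr34 (-0.35, SE 0.086, adjusted p = 0.00720) fell. The median log2 change of the 12 genes was -0.15, against 0.00 over all genes. Of the 10 general microglial markers 3 were called, all lower, and the median log2 change of the 10 was -0.06. Of those markers 8 are not on the list of microglial genes that depend on TGF-beta. Their summed level ran from 167 FPKM to 191 FPKM in libraries labelled WT and from 156 FPKM to 185 FPKM in trained ones. These ranges overlapped. Fewer microglia and less RNA per microglial cell cannot be told apart for the genes that fell.

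Over all tested genes 24.5% were called in this comparison. In the latent complex list 5 of 17 genes were, which is near that share. Of these 5, 3 were lower: Fbn1 (-0.39), Ltbp4, a relative of Ltbp1 (-0.33), and the integrin subunit Itgb8, which takes part in the release of latent TGF-beta (-0.38). Plat, the tissue plasminogen activator, rose by 0.23. Adjusted p-values of these 4 were 0.00461, 0.00404, 0.0107 and 0.0110. The coreceptor list had 1 of 10 called, the adaptor Dab2 (0.21, adjusted p = 0.0264), which was not called without 1 or the other of 2 libraries. Of 17 Smad partners 1 was called, the phosphatase Ppm1a (-0.11, adjusted p = 0.0224), at -0.04 with an adjusted p of 0.435 after GC and length correction.

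Of the 21 target genes 7 were called, 4 higher and 3 lower, against 24.5% of all tested genes. Their median log2 change was 0.12, against 0.00 over all tested genes. Cdkn1a (0.32), Tgfbi (0.27) and Id1 (0.27) rose, and Klf10, an early TGF-beta response gene, fell by 0.30 (adjusted p = 0.0208, 0.0196, 0.0192 and 0.0458). Klf10 missed the threshold in 9 of 16 fits without 1 library. In the activin and bone morphogenetic protein branch 9 of 24 were called, 3 higher and 6 lower, among them Inhba (0.37), Bmp4 (0.31), Acvr2b (-0.35) and Acvr1c (-0.29). Acvr1c was at -0.15 with an adjusted p of 0.115 after GC and length correction. Markers of fibroblasts and meninges moved in the same comparison: the summed level of 10 such markers ran from 430 FPKM to 684 FPKM in libraries labelled WT and from 716 FPKM to 1190 FPKM in trained ones, without overlap, and 5 of the 9 tested were called, 4 of them higher. Ptgds, a prostaglandin synthase, made up 95% of that sum, with 401 FPKM to 650 FPKM and 683 FPKM to 1140 FPKM. The other 9 markers together ran from 25.8 FPKM to 43.0 FPKM and from 31.5 FPKM to 45.2 FPKM, with overlap. None of these 10 markers was at 0 in any library, and their part in the changes of matrix and target genes was not tested. With a term for animal number 22 of 12572 genes were called in this comparison, and none of the genes named here.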

How the data were processed

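The authors deposited 1 table of FPKM (reads scaled to gene length and to library size), although its column names speak of counts. The submitters' processing notes name FastQC 0.11.7, Trimmomatic 0.38, STAR 2.5.3a, featureCounts of Subread 1.6.3 and mm10, with no roles given, and the labels' protocols name a stranded mRNA kit. FPKM within a gene came in whole multiples of 1 read, so whole reads were recovered for 15230 of 15232 genes (99.97% of values whole within 0.01 read). They cover counting error only. Each column was matched to its sample by the animal number in the labels.

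Genes whose mean reached 1 FPKM, 12572 in all, entered limma 3.58.1 (R 4.3.3) as log2(FPKM + 1), with lmFit, eBayes with trend and sex as covariate, 2-sided tests, Benjamini-Hochberg adjustment and a threshold of 0.05. Only the arms compared entered a fit, and sex was fitted over 24 libraries with arm. Changes on this scale understate those of low genes. The fit and the read recovery were tested on simulated data. GC content came from the longest coding GENCODE M21 transcript for 12118 genes (96.4%), and gene positions from RefSeq GRCm38.p6. Scripts ran in Python 3.11.15 with numpy 2.4.6 and pandas 2.3.3.

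The 10 genes, the lists and the naming rule were chosen with earlier results of these data known. Named beside the 10 are, for each list and comparison of arms, at most the 4 called genes with the largest change, and for each of the 10 the 3 genes most like it. Alternatives were another pseudocount (0.1), filters (none, or a mean FPKM of at least 5), scalings (median ratio, equal sum, quantile), eBayes without trend, limma-voom on recovered reads, GC and length correction, a replicate block, other covariates and samples, and each library left out. Correction by the longest transcript of any class was added after seeing the data, because the longest Tgfb1 transcript is a retained intron. Replicate numbers come from sample titles and name different animals, so they do not pair samples.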

Additional observations from a re-analysis of the deposited data

Results flagged for a closer look

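Tgfb2 in male untrained labelled KO library 3 was 4.54 FPKM, while the other 7 libraries of that arm lay between 1.72 FPKM and 2.44 FPKM. Its distance to the nearest library was 0.745 of the arm's whole range, more than expected of a group of 8. It was the only 1 of 36 groups tested (the 10 genes and the 2 targeted genes in 3 arms) to stand out in this way, and chance alone gives about 1 in 20. The value rests on 617 reads. The same library had the highest septal and striatal marker sums and the lowest Smad3 value of its arm, 15.4 FPKM.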

How the results depend on the processing

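For single genes, alternatives other than leaving out 1 library gave 792 values with the direction and side of the threshold of the reported one, 90 that missed the threshold, 15 that newly passed it and 36 of opposite direction. Causes were not tested. Where the trained arm is compared, the replicate block leaves out the trained female whose title has no number. It also leaves out untrained female 4 of the other arm, so that 14 libraries remain. The block called 114 genes for genotype label, 29 for training and 1614 for trained labelled KO against untrained labelled WT (below, both factors), and 0 members in each. Without sex the first 2 counts were 98 and 422, and with all 24 libraries training called 1238. The term for animal number called 0 genes for training and 22 for both factors, and males over 1000 gave 0. Members called for training were 1 with equal sums, 1 with quantile normalization, 2 with voom and 2 with all 24 libraries. For both factors they were 1 without a filter, 3 with equal sums, 1 without trend, 3 with voom and 1 with all 24. For sex they were 0 with GC and length correction of either kind and 0 with animal number (where the differences stayed at 0.15, -0.17 and -0.09), and the genes called were 350 and, by transcripts of any class, 603. Training by sex called 13 genes with a pseudocount of 0.1, 22 at a mean FPKM of at least 5, 15 with median ratios, 4 with equal sums, 86 with quantiles, 3 with voom, 3 with GC correction and 7 with that of any class.

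Directions turned under some alternatives (log2 values). For training they were Tgfb1 (-0.0157 with equal sums, -0.0246 with any class, -0.065 with animal number, -0.0704 in males over 1000), Tgfb2 (0.24 and 0.16 in the last 2), Tgfbr1 (0.0107 and 0.0556 in the same), Tgfbr2 (-0.0217 with equal sums, -0.0077 with voom, -0.0391 with the block, -0.0387 with animal number, -0.0651 in males over 1000) and Smad2 (0.0179 in those males). For both factors they were Tgfb1 (-0.0965 with animal number), Tgfb2 (-0.0011 with pseudocount 0.1, -0.0257 with equal sums, -0.0215 with voom), Tgfbr2 (0.0187 with quantiles, 0.0045 with GC correction, 0.0058 with any class, 0.046 with animal number), Smad4 (0.0015 with the block, 0.11 with animal number) and Smad7 (0.11 with animal number). For sex they were Tgfb2 (0.0065 with voom, 0.0376 with GC correction, 0.0447 with any class, 0.0531 with animal number), Tgfb3 (-0.0006 with equal sums, -0.0143 with GC correction, -0.0336 with any class) and Smad7 (-0.0197, -0.0839 and -0.0939 in these 3, -0.0055 with the block).

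With 1 library left out, genes called ran from 115 (without WT female 3) to 340 (without untrained KO male 3) for genotype label, 330 to 945 for training, 2363 to 3418 for both factors, 2986 to 4233 for sex and 0 to 194 (without untrained KO male 3) for training by sex. Training called 332, 408, 433, 330 and 472 genes without trained females 1, 2 and 4 and untrained KO females 1 and 4. Members called ran from 0 to 0, 0 to 1, 0 to 3, 3 to 3 and 0 to 0. Changes turned for genotype label in Tgfb2 (-0.0219 to 0.14) and Tgfbr2 (-0.0575 to 0.0384). For training they did in Tgfb1 (-0.0483 to 0.0496), Tgfb2 (-0.16 to 0.0215) and Tgfbr2 (-0.0421 to 0.0463). For both factors they did in Tgfb2 (-0.0596 to 0.0283), Tgfbr2 (-0.0579 to 0.0391) and Smad4 (-0.0261 to 0.019), and for sex in Tgfb2 (-0.0934 to 0.0243), Smad3 (-0.0371 to 0.0175) and Smad7 (-0.0004 to 0.0395). Same-numbered samples had mean correlations of 0.02, -0.07 and -0.10. Counting error limits Tgfb1 most, with 36 to 91 reads.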
